A study of Mus musculus with 20 samples.

Results

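Levels of 9 genes of the acute phase response, the fibrinogen genes left aside, were followed in mouse kidneys after induced loss of Fh1, the gene of the mitochondrial enzyme fumarate hydratase. They were chosen by name from the count table and comprise 7 secreted acute phase products, Saa1, Saa2, Saa3, Hp, Lrg1, Serpina3n and Orm1, and the transcription factor genes Cebpb and Cebpd. All 9 of these symbols were found among the 24421 in the table.

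The acute phase response is the rapid change in secreted proteins that follows injury or infection. It is best known in the liver, where interleukin-6 acting through STAT3, and interleukin-1 acting through NF-kB, switch on the genes of these proteins together with the C/EBP factors, which bind many of their promoters. Injured tubule cells of the kidney are also known to make several of them. Saa1 and Saa2 encode the serum amyloid A apolipoproteins that travel on high density lipoprotein, and Saa3 encodes a related protein made mainly outside the liver, by macrophages and fat cells among others. Hp encodes haptoglobin, which captures free haemoglobin, and Orm1 encodes orosomucoid, a plasma carrier of basic drugs. Lrg1 encodes a leucine-rich glycoprotein that modifies TGF-beta signalling in endothelium, and Serpina3n encodes a secreted serine protease inhibitor. Cebpb and Cebpd encode C/EBP-beta and C/EBP-delta.

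RNA-seq had been done on 20 kidney libraries in 4 groups of 5, with both genotypes sampled at day 10 and at day 5 from induction. Fh1-/- mice were Fh1 fl/fl; R26 CreERT2/CreERT2 and lose exons 3 and 4 of Fh1, and Fh1+/+ littermates lacked the floxed allele but carried the same Cre. Every mouse, control or not, was given 3 intraperitoneal injections of 2 mg tamoxifen, at an age of 12 weeks, and was of mixed C57BL/6 and 129/SvJ background. The Rosa26 promoter drives the Cre in all tissues, so the liver and the immune cells of these mice can have recombined as well as the kidney. Replicates carry a number but no animal name in the labels, and p-values therefore rest on the spread among libraries, which may be technical in part.

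Libraries held 16654829 to 25001294 counts. The defining markers of proximal tubule (Slc34a1, Lrp2), thick ascending limb (Umod) and distal tubule (Slc12a3) were detected in all 20 libraries, as the kidney label requires. Fh1 itself lay at 248 to 413 CPM (counts scaled to library size with TMM factors over all libraries) in Fh1-/- against 222 to 259 CPM in Fh1+/+ kidneys at day 10. Exons other than the deleted ones also give reads, and this level is therefore no check of genotype. Fh1-/- day 10 replicates 1 and 3 stood apart from the rest, with scores of 125 and 128 on the first principal component (42.8% of the variance) against -31.3 to 30.3 for the other 18 libraries. Fold changes of the 9 genes and the named genes of the pathway lists are given with and without both, and the counts over lists with them. Summed Y-linked transcripts were at 1.03 CPM or less in 3 of 5 Fh1-/- and 2 of 5 Fh1+/+ libraries at day 10.

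The 3 serum amyloid A genes lie close together on chromosome 7 of GRCm38 (GENCODE models). Saa3 at chr7:46711998-46715700 and Saa1 at chr7:46740497-46742980 are on the minus strand, and Saa2 at chr7:46751790-46754313 is on the plus strand. The 24796 bp between Saa3 and Saa1 were not searched for other genes. Saa1 and Saa2 are thus head to head, with 8809 bp between them. Their coding sequences are 95.1% identical (348 of 366 bases) and their transcripts share a run of 99 identical bases, so reads can be divided between them in a way the counts do not show. Saa3 is more distant, at 75.9% identity with Saa1. The first 120 coding bases of both genes are shown because they set how well short reads can separate them. Capitals mark the 5 positions where Saa2 departs from Saa1.
Saa1: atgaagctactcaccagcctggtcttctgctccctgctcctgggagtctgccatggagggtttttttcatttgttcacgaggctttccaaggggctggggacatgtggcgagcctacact
Saa2: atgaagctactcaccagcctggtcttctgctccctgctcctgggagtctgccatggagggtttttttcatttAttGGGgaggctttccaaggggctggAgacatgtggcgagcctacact

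The other genes lie apart, Hp at chr8:109575128-109579172 and Lrg1 at chr17:56119678-56122001 on the minus strand, Serpina3n at chr12:104406729-104414329 and Orm1 at chr4:63344560-63348163 on the plus strand. Orm1 is 89.9% identical to Orm2 over its coding sequence and Serpina3n 85.2% identical to Serpina3m, so their counts carry the same uncertainty. Cebpb is a single exon at chr2:167688915-167690418 and Cebpd a single exon at chr16:15887286-15891031, both on the plus strand. Of the 1504 exonic bases of Cebpb, 312 are also exonic in Tmem189 on the opposite strand, and of the 3746 of Cebpd, 562 are exonic in Spidr. Whether counting used strand was not given in the sources used here, and reads of these overlaps cannot be told apart. Tmem189 and Spidr had log2 fold changes of 0.04 and 0.07 between Fh1-/- and Fh1+/+ kidneys at day 10 (adjusted p = 0.906 and 0.934 from edgeR).

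RefSeq promoter windows (GRCm38.p6) were matched by symbol for 6 of the 9 genes. Hp, Orm1 and Cebpd are named only. Within 250 bases before the start, the C/EBP motif TTGCNNAA, searched on both strands, was found in 3 of 6 windows, those of the serum amyloid A genes, against 9.56% of 32851 windows of all genes. The NF-kB motif (GGG and TTCC with any 3 bases between) was found in the windows of Lrg1, 34 bases before the RefSeq start, which lies 55 bases inside the GENCODE model so that the match is within that model, and Serpina3n, 171 bases before it, against 4.65% of all windows. The STAT3 motif TTCCNGGAA was found in 0 of the 6 and in 0.913% of all windows. A match is a description of the letters and not a bound site. The windows of the serum amyloid A genes and Serpina3n are shown from 250 to 51 bases before the start, on the gene's strand, because they hold these matches, which are in capitals. They are chr7:46743031-46743230 for Saa1, chr7:46751583-46751782 for Saa2, chr7:46715727-46715926 for Saa3 and chr12:104406458-104406657 for Serpina3n.
Saa1: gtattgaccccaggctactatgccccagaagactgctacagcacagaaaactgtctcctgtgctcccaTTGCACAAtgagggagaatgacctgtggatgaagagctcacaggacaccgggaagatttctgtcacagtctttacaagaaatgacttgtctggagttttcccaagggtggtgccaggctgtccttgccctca
Saa2: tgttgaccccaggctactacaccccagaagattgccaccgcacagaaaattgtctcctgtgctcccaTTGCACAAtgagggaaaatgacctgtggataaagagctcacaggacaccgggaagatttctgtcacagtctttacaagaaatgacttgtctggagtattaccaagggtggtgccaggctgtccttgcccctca
Saa3: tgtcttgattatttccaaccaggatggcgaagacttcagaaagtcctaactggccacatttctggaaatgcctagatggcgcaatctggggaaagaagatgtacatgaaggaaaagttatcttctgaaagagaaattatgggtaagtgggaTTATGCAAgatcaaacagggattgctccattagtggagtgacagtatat
Serpina3n: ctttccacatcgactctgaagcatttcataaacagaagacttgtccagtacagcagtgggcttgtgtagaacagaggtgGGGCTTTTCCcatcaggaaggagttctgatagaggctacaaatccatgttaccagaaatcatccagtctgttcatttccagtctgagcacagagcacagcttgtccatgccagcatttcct

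At day 10 the 9 genes did not behave as one group. Saa1 and Lrg1 were far higher in 4 of 5 Fh1-/- kidneys than in Fh1+/+ kidneys, with log2 ratios of the group means of 6.93 and 6.58. Serpina3n had a ratio of 6.09, but was far higher in Fh1-/- replicates 1 and 3 alone and lay a little above the Fh1+/+ range in the other 3. Cebpb and Cebpd were higher by a smaller amount. DESeq2 called these 5 genes and edgeR called 0 at the thresholds of the study. Saa2 was high in Fh1-/- replicates 1 and 3 alone. Saa3, Hp and Orm1 overlapped between the genotypes, with high libraries in both. The plot of levels by library shows these patterns for all 4 groups.

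**Figure D1:**
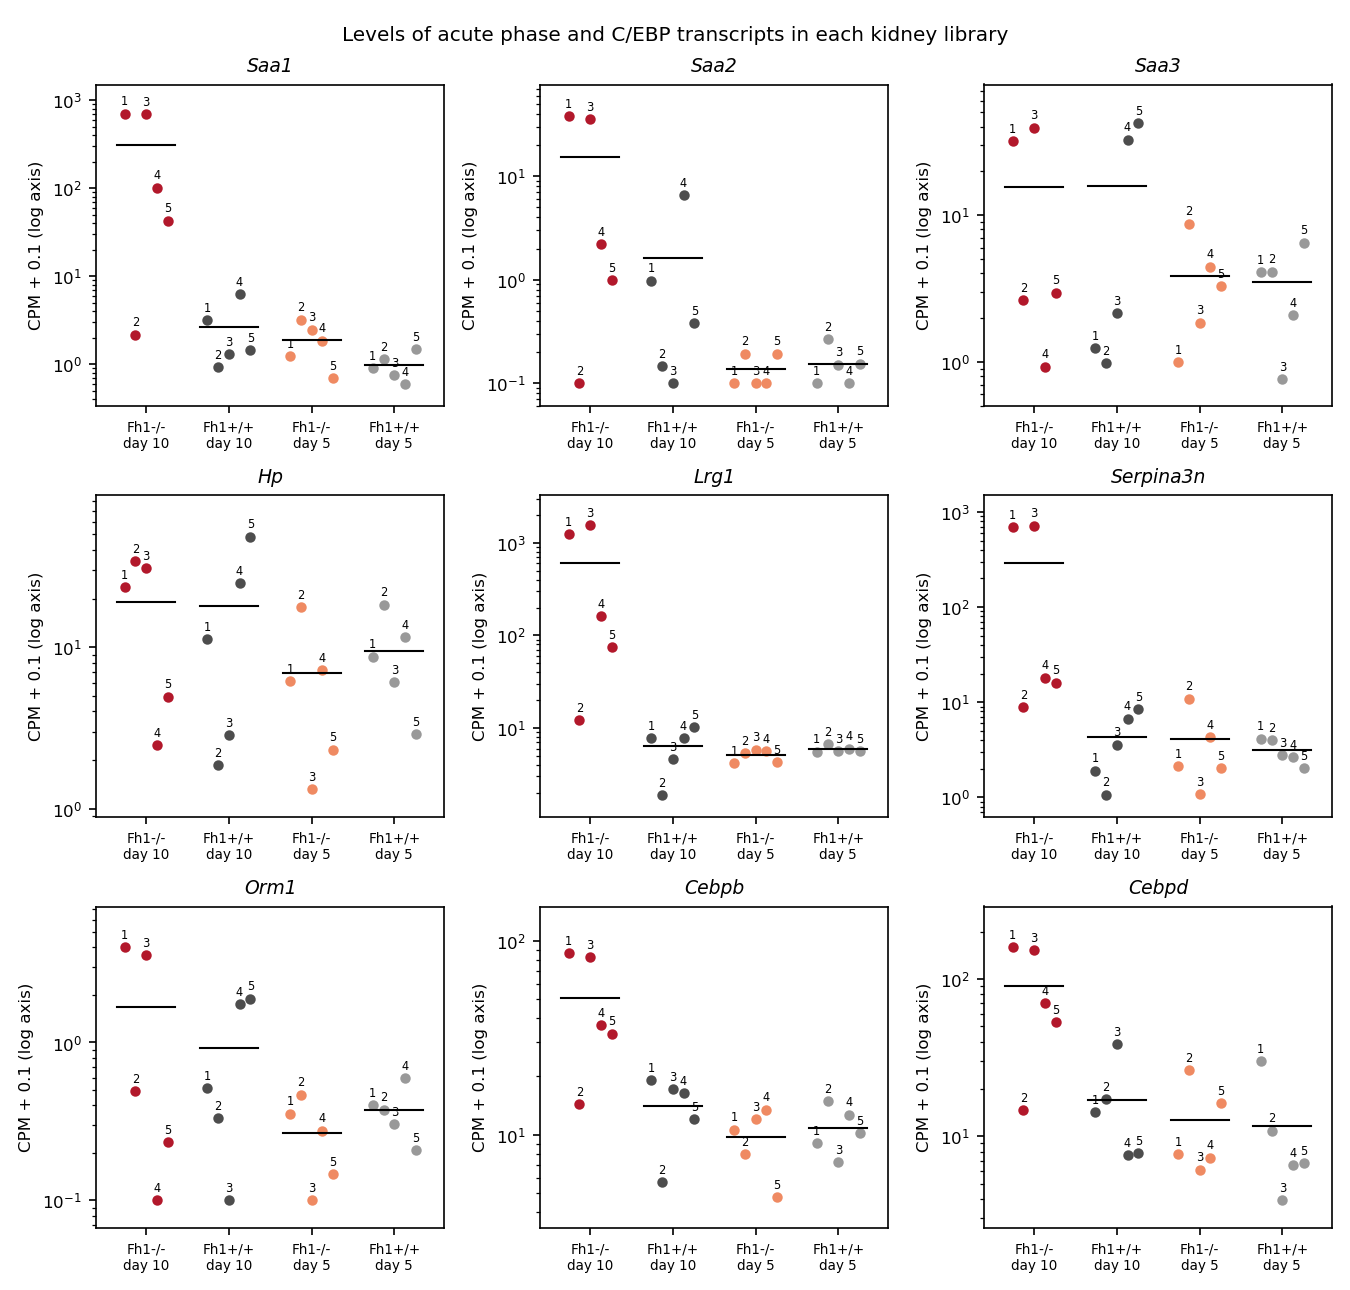
Level of each gene in every kidney library, in CPM plus 0.1 on a log axis, with Fh1-/- left of Fh1+/+ at day 10 and at day 5. Points are libraries, the digit is the replicate number and the line is the group mean (n = 5 each). For Lrg1 the 5 Fh1-/- libraries of day 10 lie between 12.0 and 1548 CPM, all above the Fh1+/+ libraries, of which the highest is 10.1 CPM.

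Among the secreted products, Saa1 was at 709, 2.07, 696.5, 101.5 and 42.9 CPM in Fh1-/- replicates 1 to 5 at day 10, against 3.10, 0.83, 1.22, 6.20 and 1.35 CPM in Fh1+/+ replicates 1 to 5. Fh1-/- replicate 2 lay inside the Fh1+/+ range and the other 4 lay above all of it. The log2 fold change was 6.92 (standard error 1.42), with adjusted p of 0.038 by the quasi-likelihood test of edgeR and 3.2e-07 by DESeq2.

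Saa2, its near-identical neighbour, was at 38.2, 0, 35.5, 2.09 and 0.89 CPM in Fh1-/- against 0.88, 0.046, 0, 6.46 and 0.28 CPM in Fh1+/+ kidneys, so that only Fh1-/- replicates 1 and 3 exceeded every Fh1+/+ library. Its log2 fold change was 3.30 (standard error 1.59, adjusted p = 0.206 from edgeR). The 0 counts in Fh1-/- replicate 2 and Fh1+/+ replicate 3 allow up to 0.175 and 0.180 CPM. Of all reads of Saa1 and Saa2 together, Saa2 had 5.11% (95% exact interval 4.73 to 5.52) and 4.85% (4.44 to 5.28) in Fh1-/- replicates 1 and 3, and 2.02% (1.43 to 2.76) and 2.04% (1.25 to 3.13) in replicates 4 and 5. In Fh1+/+ replicate 4 it had 51.0% (44.5 to 57.5) of 239 reads. The balance of both genes thus differed between libraries by more than counting error, the only error these intervals cover.

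Lrg1 was at 1245, 12.0, 1548, 161 and 74.7 CPM in Fh1-/- replicates 1 to 5, against 7.70, 1.80, 4.53, 7.68 and 10.1 CPM in Fh1+/+ replicates 1 to 5. Every Fh1-/- library was above every Fh1+/+ library, replicate 2 by little. The log2 fold change was 6.57 (standard error 1.2798), with adjusted p of 0.036 by edgeR and 1.0e-07 by DESeq2.

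Serpina3n was at 686.5, 8.84, 717, 18.0 and 15.95 CPM in Fh1-/- and at 1.81, 0.97, 3.48, 6.62 and 8.36 CPM in Fh1+/+ kidneys. The groups did not overlap, but Fh1-/- replicates 1 and 3 were on average 49.2 times the mean of the other 3 Fh1-/- libraries, the widest such gap among the 9 genes, against 14.4 times for Saa1 and 16.9 times for Lrg1. The log2 fold change of Serpina3n was 6.08 (standard error 1.45, adjusted p = 0.053 from edgeR, 3.4e-05 from DESeq2).

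Saa3 was at 31.7, 2.52, 39.2, 0.83 and 2.86 CPM in Fh1-/- kidneys, against 1.14, 0.88, 2.04, 32.6 and 42.1 CPM in Fh1+/+ kidneys. High libraries were thus found in both genotypes, Fh1-/- replicates 1 and 3 and Fh1+/+ replicates 4 and 5. Its log2 fold change was -0.04 (standard error 1.26, adjusted p = 0.984 from edgeR).

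Hp was at 23.5, 33.9, 30.8, 2.37 and 4.83 CPM in Fh1-/- kidneys, against 11.2, 1.75, 2.76, 24.9 and 48.4 CPM in Fh1+/+ kidneys, and the groups overlapped across their whole range. Its log2 fold change was 0.09 (standard error 0.92, adjusted p = 0.956 from edgeR). Orm1 was at 3.93, 0.39, 3.48, 0 and 0.13 CPM in Fh1-/- kidneys and at 0.41, 0.23, 0, 1.64 and 1.80 CPM in Fh1+/+ kidneys. It did not pass the filter on low counts and was not tested, and the count of 0 in Fh1-/- replicate 4 allows up to 0.165 CPM.

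Of the factor genes, Cebpb was at 86.5, 14.3, 82.1, 36.6 and 33.2 CPM in Fh1-/- kidneys at day 10, against 19.1, 5.58, 17.01, 16.3 and 11.9 CPM in Fh1+/+ kidneys. Its log2 fold change was 1.85 (standard error 0.49, adjusted p = 0.066 from edgeR, 0.0025 from DESeq2). Cebpd was at 160, 14.5, 152, 69.9 and 53.0 CPM in Fh1-/- kidneys, against 14.2, 17.2, 38.6, 7.47 and 7.74 CPM in Fh1+/+ kidneys. Its log2 fold change was 2.39 (standard error 0.65, adjusted p = 0.071 from edgeR, 0.0019 from DESeq2). For each factor gene, 4 of 5 Fh1-/- libraries were above all Fh1+/+ libraries and replicate 2 was not.

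By the thresholds of the study, an adjusted p under 0.01 with an absolute log2 fold change over 0.58, edgeR called 0 of the 8 genes tested at day 10, where it called 0.0557% of 14360 genes. DESeq2 called 5, namely Saa1, Lrg1, Serpina3n, Cebpb and Cebpd, where it called 5.54% of all genes (3.49% as higher in Fh1-/-). At an adjusted p under 0.05 edgeR called Saa1 and Lrg1, against 2.83% of all genes, and at an unadjusted p under 0.05 the same 5 genes as DESeq2 were higher, against 15.1%. The groups did not overlap for Lrg1 and Serpina3n, as for 3.96% of all genes tested. At least 4 Fh1-/- libraries were above all Fh1+/+ libraries for those genes and Saa1, Cebpb and Cebpd, as for 11.7%. The log2 fold change was over 5 for Saa1, Lrg1 and Serpina3n, which were 3 of the 14 such genes (0.0975%). The median over the 8 was 2.85, against 0.00 over all genes.

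These differences were smaller without Fh1-/- replicates 1 and 3. Without both, the log2 fold change was 4.28 for Saa1 (adjusted p = 0.093 from edgeR), 3.72 for Lrg1 (adjusted p = 0.063 from edgeR) and 1.77 for Serpina3n (adjusted p = 0.167 from edgeR). Without both it was 1.02 for Cebpb and 1.44 for Cebpd, -2.90 for Saa3 and -0.60 for Saa2, with adjusted p of 0.207, 0.235, 0.296 and 0.864 from edgeR. The groups still did not overlap for Lrg1 and Serpina3n, as for 6.52% of all genes without these libraries. Without Fh1-/- replicate 2 instead, edgeR called Saa1 (log2 fold change 7.24, adjusted p = 0.0060) and Lrg1 (6.89, adjusted p = 0.0061), among 235 calls over all genes.

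**Figure D2:**
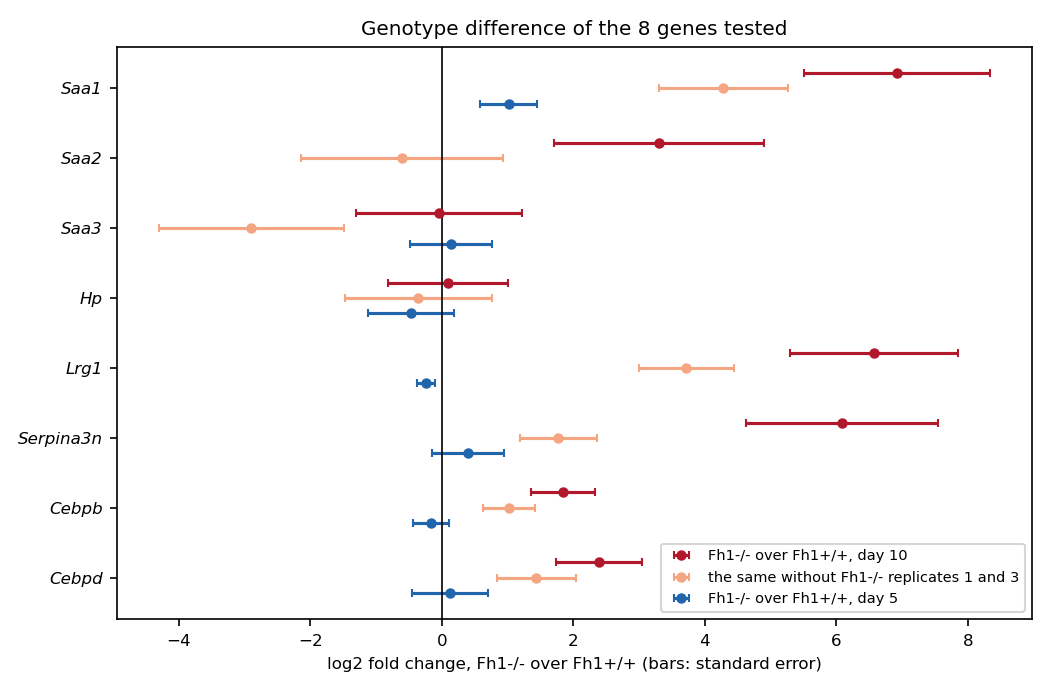
Log2 fold change of Fh1-/- over Fh1+/+ kidneys for the 8 genes tested, with standard errors as bars, at day 10, at day 10 without Fh1-/- replicates 1 and 3, and at day 5. Saa1 and Lrg1 stay above 3 at day 10 without both libraries, while Saa2 and Saa3 lie below 0. Saa2 was not tested at day 5.

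Both levels of the Y-linked transcripts occurred in each genotype. Among the day 10 libraries with low Y-linked transcripts (3 Fh1-/- and 2 Fh1+/+), Lrg1 was at 74.7 to 1548 CPM in Fh1-/- against 1.80 to 4.53 CPM in Fh1+/+ kidneys. Among those with high ones (2 Fh1-/- and 3 Fh1+/+), it was at 12.0 to 161 CPM in Fh1-/- against 7.68 to 10.1 CPM in Fh1+/+ kidneys. Serpina3n and Cebpd did not overlap within either set. Saa1 and Cebpb overlapped among the libraries with high Y-linked transcripts, where Fh1-/- replicate 2 belongs. Among the low ones, Saa2, Saa3 and Hp were also higher in every Fh1-/- library, with Saa3 at 2.86 to 39.2 CPM in Fh1-/- against 0.88 to 2.04 CPM in Fh1+/+ kidneys and Hp at 4.83 to 30.8 CPM against 1.75 to 2.76 CPM. Among the high ones these genes overlapped, and Orm1 was lower in Fh1-/- kidneys, at 0 to 0.39 CPM against 0.41 to 1.80 CPM. Fh1-/- replicates 1 and 3 belong to the low set, at 0.31 and 0.85 CPM of Y-linked transcripts. Replicate 5, the other Fh1-/- library of that set, held the lower ends of 2.86 CPM of Saa3 and 4.83 CPM of Hp. The share of all genes that separate within sets this small was not computed, so these separations are descriptions only.

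Markers of cell types moved with several of the genes. In bulk tissue, fewer cells of a type and less RNA per cell cannot be told apart. The sum of 5 proximal tubule markers was 2057, 8235, 2252, 5188 and 4935 CPM in Fh1-/- replicates 1 to 5 at day 10, against 7223 to 9684 CPM in Fh1+/+ kidneys. It ran opposite to Saa1 and Lrg1, with Pearson's r of log2 CPM of -0.93 and -0.92 over all 20 libraries and -0.78 and -0.72 over the 18 without Fh1-/- replicates 1 and 3. For Serpina3n, Saa2, Cebpd and Cebpb r was -0.92, -0.89, -0.88 and -0.86 over 20 libraries and -0.64, -0.67, -0.77 and -0.61 over 18. For Saa3, Hp and Orm1 it was -0.47, -0.31 and -0.57 over 20 and 0.05, 0.04 and 0.09 over 18. Of the 5 markers, Slc5a12 was not lower on average (198 CPM in Fh1-/-, 185 CPM in Fh1+/+ at day 10). In Fh1-/- replicate 2, which had low Saa1, the sum lay within the Fh1+/+ range. The part of these cells in the result was not tested. The sum of 5 endothelial markers was 64.1, 224.6, 60.7, 222 and 286 CPM in Fh1-/- replicates 1 to 5 against 247 to 458 CPM in Fh1+/+ kidneys. Its r with Saa1, Lrg1 and Serpina3n was -0.79, -0.84 and -0.84 over 20 libraries and -0.25, -0.32 and -0.20 over 18, and its part was not tested.

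The sum of 8 hepatocyte markers was 22.4 to 130 CPM in Fh1-/- against 21.3 to 48.3 CPM in Fh1+/+ kidneys at day 10. The higher sums came from Apoc3, an apolipoprotein gene, at 14.4 to 126 CPM in Fh1-/- against 11.1 to 25.2 CPM in Fh1+/+ kidneys. Albumin (Alb), the defining hepatocyte product, was at 3.55 to 10.6 CPM in Fh1-/- against 4.32 to 28.3 CPM in Fh1+/+ kidneys, and Ahsg at 0 to 0.50 CPM against 0 to 1.59 CPM. Serpinc1, which encodes antithrombin, was at 0.36 to 0.95 CPM against 1.44 to 2.08 CPM. Ahsg was at 0 in 2 Fh1-/- and 1 Fh1+/+ libraries. Pearson's r of log2 CPM of Saa1 with the hepatocyte sum was 0.72 over 20 libraries and 0.36 over the 18 without Fh1-/- replicates 1 and 3. The part of hepatocyte RNA in the result was not tested. The sum of 9 neutrophil markers was 0.50 to 3.30 CPM in Fh1-/- against 1.99 to 64.9 CPM in Fh1+/+ kidneys, that of 5 pan-leukocyte markers 21.1 to 62.0 CPM against 58.5 to 88.2 CPM, and that of 8 macrophage markers 87.7 to 189 CPM against 175 to 218 CPM. Of the 8 macrophage markers, 2 had log2 fold changes above 0. Cd68 was at 3.25 to 39.8 CPM (mean 18.6) in Fh1-/- against 3.64 to 11.0 CPM (mean 6.99) in Fh1+/+ kidneys. Fh1+/+ replicate 4, which had the highest neutrophil sum of 64.9 CPM, also had the highest Saa2 of its group. Fh1+/+ replicates 4 and 5, with the high Saa3, Hp and Orm1 of that genotype, had the highest neutrophil sums of all day 10 libraries, 64.9 and 18.7 CPM. Pearson's r of log2 CPM with the neutrophil sum over the 18 libraries was 0.61 for Saa3, 0.59 for Orm1, 0.52 for Saa2, 0.39 for Hp, 0.03 for Saa1 and -0.07 for Lrg1, and over all 20 it was 0.13, 0.01, -0.14, 0.11, -0.40 and -0.47 in the same order. The part of neutrophil RNA in these levels was not tested.

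Outside Fh1-/- day 10 replicates 1 and 3, levels of Hp and Orm1 ran with those of fat cell markers. The sum of 6 such markers was 66.5, 598.5, 65.5, 39.8 and 70.5 CPM in Fh1-/- replicates 1 to 5 at day 10, against 55.4, 93.1, 71.8, 154.8 and 324.9 CPM in Fh1+/+ replicates 1 to 5. The highest Hp in Fh1-/- was in replicate 2 and the highest in Fh1+/+ in replicate 5, the libraries with the highest sums. Pearson's r of log2 CPM between Hp and the sum was 0.64 over 20 libraries and 0.76 over the 18 without Fh1-/- day 10 replicates 1 and 3. For Orm1 these values were 0.38 and 0.66. In Fh1-/- replicates 1 and 3, Hp and Orm1 were high at low sums. The share of fat cell RNA in these counts was not tested.

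**Figure D3:**
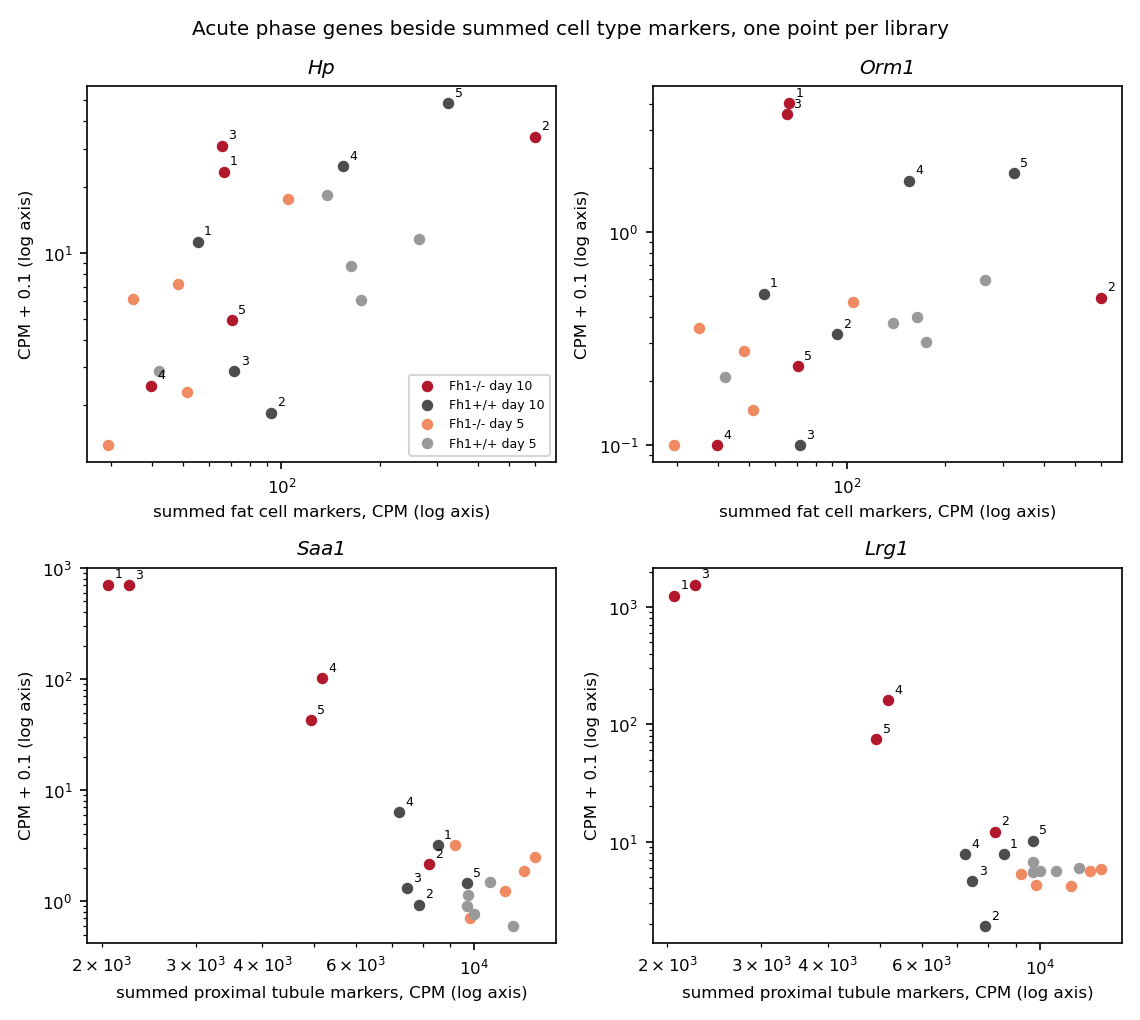
Levels of Hp and Orm1 against the summed fat cell markers and of Saa1 and Lrg1 against the summed proximal tubule markers, in CPM on log axes (0.1 added to the genes). Points are the 20 libraries, coloured by group, with the replicate number for day 10. Fh1-/- replicates 1 and 3 lie at 2057 and 2252 CPM of proximal tubule markers with the highest Saa1 and Lrg1.

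At day 5, 0 of the 7 genes tested passed between genotypes in edgeR or DESeq2. Lrg1 was nearly uniform, at 4.07, 5.24, 5.76, 5.52 and 4.20 CPM in Fh1-/- replicates 1 to 5 against 5.44, 6.55, 5.49, 5.88 and 5.57 CPM in Fh1+/+ replicates 1 to 5. Saa1 was at 1.14, 3.13, 2.38, 1.76 and 0.60 CPM in Fh1-/- against 0.80, 1.05, 0.66, 0.49 and 1.39 CPM in Fh1+/+ kidneys. Its difference of 1.02 on the log2 scale (standard error 0.43, unadjusted p = 0.039, adjusted p = 1 by edgeR) was the only one of 7 with an unadjusted p under 0.05, where 2.42% of all genes were higher and 2.37% lower. For Saa1, 3 of 5 Fh1-/- libraries were above all Fh1+/+ libraries. For Lrg1, 3 of 5 were below all of them within its narrow range, as were 2 of 5 for Hp and for Orm1. For Serpina3n 2 were above and 1 was below, for Saa3 1 was above and for Cebpb 1 was below. No share over all genes was computed for these counts, so they are descriptions only.

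The other log2 fold changes at day 5 were 0.14 for Saa3, -0.46 for Hp, -0.24 for Lrg1, 0.40 for Serpina3n, -0.16 for Cebpb and 0.13 for Cebpd, each with adjusted p = 1 from edgeR. Fh1-/- replicate 2 had the highest level of its group for Saa1, Saa3, Hp, Serpina3n and Cebpd, with 10.8 CPM of Serpina3n against 0.99 to 4.23 CPM in the other 4. Saa2 had 4 reads over the 5 Fh1-/- libraries and 5 over the Fh1+/+ libraries, Orm1 had 18 and 26, and neither was tested. Over all genes edgeR called 0.0347% of 14404 and DESeq2 0.215%. The median was 0.13 over the 7 genes tested and -0.01 over all genes.

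The difference between the days asks whether the genotype effect was larger at day 10, and was fitted on all 20 libraries. It was 6.81 on the log2 scale for Lrg1 (standard error 1.20, adjusted p = 0.0187 from edgeR, 1.1e-06 from DESeq2), 5.91 for Saa1 (adjusted p = 0.060 from edgeR) and 5.68 for Serpina3n (adjusted p = 0.067 from edgeR). For Cebpb it was 2.00 and for Cebpd 2.27 (adjusted p = 0.089 and 0.186 from edgeR), and for Saa2 it was 3.69, for Hp 0.56 and for Saa3 -0.18 (adjusted p = 0.570, 0.822 and 0.9585 from edgeR). At the study's thresholds edgeR called 0 of the 8 genes, against 0.0335% of 14934 genes, while DESeq2 called Saa1, Lrg1 and Serpina3n, against 1.82%. At an unadjusted p under 0.05 from edgeR 5 of the 8 were higher, against 11.8% of all genes. At an adjusted p under 0.05 edgeR called Lrg1 alone, against 1.08%. Without Fh1-/- day 10 replicate 2 edgeR called Saa1 and Lrg1, and without replicate 5 Lrg1. Calls over all genes also rose in some fits that left out a library (range in the closing section). These calls are therefore descriptions only. Without both Fh1-/- day 10 replicates 1 and 3 the difference was 3.96 for Lrg1 and 3.26 for Saa1, with adjusted p of 0.032 and 0.197 by edgeR. It was then 1.36 for Serpina3n, 1.18 for Cebpb and 1.31 for Cebpd, with adjusted p of 0.5197, 0.297 and 0.556 by edgeR, and -3.05 for Saa3, -0.22 for Saa2 and 0.10 for Hp.

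Fh1+/+ kidneys at day 10 were set against those at day 5 to see how far the genes moved without loss of Fh1. Saa3 was at 15.8 ± 20.02 CPM (SD, n = 5) at day 10 and 3.40 ± 2.18 CPM at day 5 (log2 fold change 2.21, with an adjusted p of 0.9485 from edgeR). Saa1 was at 2.54 ± 2.23 CPM at day 10 and 0.88 ± 0.35 CPM at day 5, which is 1.53 on the log2 scale (unadjusted p = 0.018, and the adjusted p was 0.9485 from edgeR). All 7 genes tested had values above 0, as had 51.6% of all genes, with a median of 0.56 against 0.01 over all genes, and 0 passed in edgeR or DESeq2. Of 14501 genes, 0% were called by either tool, while 1.99% had higher and 1.98% had lower levels with unadjusted p below 0.05 in edgeR. These libraries also serve in the genotype comparisons, so the values are not independent of them.

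Divided by transcript length, the order of the levels in Fh1-/- kidneys at day 10 was Saa1 (509.7 ± 591 CPM per kb, SD, n = 5), Lrg1 (432 ± 518), Serpina3n (140.1 ± 182.5), Cebpb (33.6 ± 21.3), Saa3 (27.8 ± 33.3), Saa2 (25.3 ± 32.5), Cebpd (24.02 ± 17.03), Hp (14.2 ± 10.9) and Orm1 (2.05 ± 2.51). Neighbours in this order did not differ beyond their spread, and the order rests on Fh1-/- replicates 1 and 3. Over the other 3 Fh1-/- libraries it was Saa1 (80.2 ± 82.1 CPM per kb), Lrg1 (58.6 ± 53.1), Cebpb (18.6 ± 7.99), Cebpd (12.2 ± 7.58), Hp (10.2 ± 13.1), Serpina3n (6.91 ± 2.33), Saa3 (3.73 ± 1.96), Saa2 (1.64 ± 1.73) and Orm1 (0.23 ± 0.26). In Fh1+/+ kidneys at day 10 Saa3 (28.4 ± 36.1 CPM per kb) and Hp (13.2 ± 14.5) came first and Orm1 (1.05 ± 1.08) last. The 9 genes together took 0.250% and 0.273% of all counts in Fh1-/- replicates 1 and 3 at day 10, 0.00922% to 0.0392% in the other Fh1-/- libraries and 0.00338% to 0.0131% in the Fh1+/+ libraries of that day.

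Other acute phase products at day 10 included some of the widest differences. Of 24 listed, 17 were tested, 13 had log2 fold changes above 0 (49.9% of all genes) and the median was 1.58. EdgeR called 0 at the study's thresholds, and DESeq2 called 5 as higher, against 3.49% of all genes, and 0 as lower. With unadjusted p below 0.05 in edgeR, 12 stood higher and 0 lower, against 15.1% and 11.9% of all genes. Lcn2, which encodes the iron-siderophore binder lipocalin-2, was at 13.6 to 9421 CPM in Fh1-/- against 7.46 to 28.2 CPM in Fh1+/+ kidneys (log2 fold change 8.09, adjusted p = 0.046 from edgeR). C3, the central complement component, was at 380 to 6807 CPM in Fh1-/- against 57.9 to 181 CPM in Fh1+/+ kidneys (4.81, adjusted p = 0.027 from edgeR). Lbp, which binds lipopolysaccharide, differed by 1.32 on the log2 scale (adjusted p = 0.060 in edgeR). At day 5 edgeR and DESeq2 called 0 of 16, against 0.0347% and 0.215% of all genes. At an unadjusted p under 0.05 from edgeR 1 was higher, against 2.42% of all genes.

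**Figure D4:**
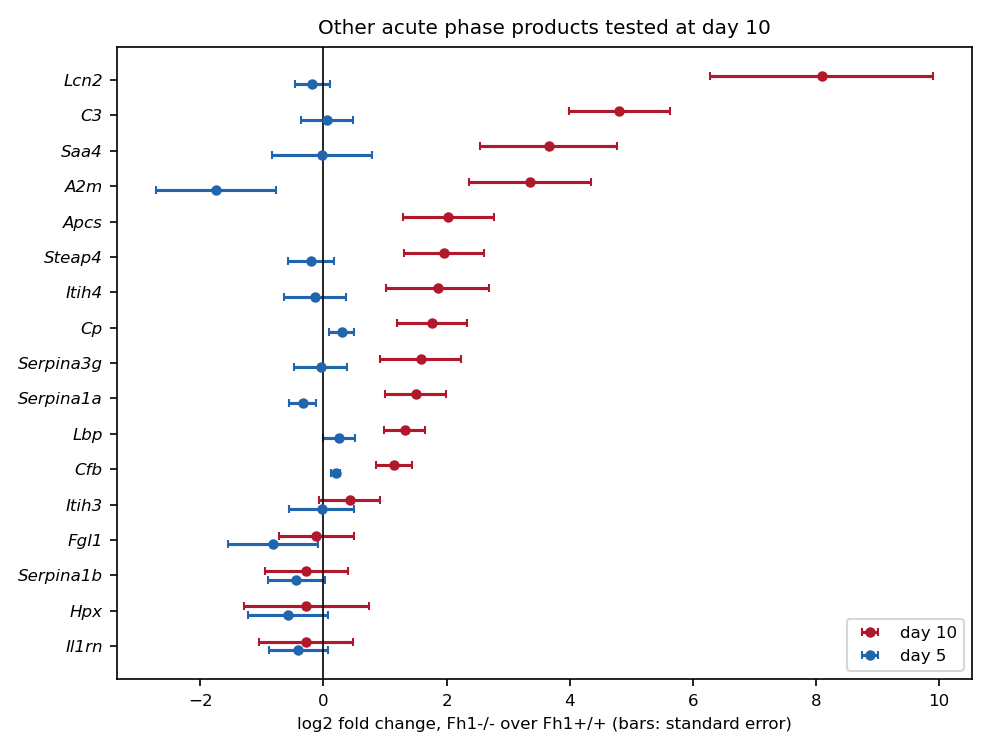
Log2 fold change of Fh1-/- over Fh1+/+ kidneys for the 17 other acute phase products tested at day 10, with standard errors as bars, at day 10 and at day 5. Lcn2 (8.09) and C3 (4.81) are the highest at day 10, and the values at day 5 lie between -0.82 and 0.29 apart from A2m (-1.75). Apcs was not tested at day 5.

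In the pathway that induces these genes, the cytokine genes Il6, Il11, Lif, Osm, Il1a and Tnf did not pass the filter on low counts at day 10. Lif, a cytokine of the interleukin-6 family, was nevertheless at 53.5, 0.50, 54.2, 0.17 and 0.36 CPM in Fh1-/- replicates 1 to 5 against 0.17 to 0.72 CPM in Fh1+/+ kidneys. It was thus high in Fh1-/- replicates 1 and 3 alone. In the fit of all 20 libraries, where it passed the filter, its difference between the days was 6.26 (adjusted p = 0.082 by edgeR, 0.0032 by DESeq2, which called it). Without both Fh1-/- day 10 replicates 1 and 3 this difference was 0.32 (adjusted p = 0.877 by edgeR). Il6 was at 1.90 and 1.63 CPM (31 and 23 reads) in Fh1-/- replicates 1 and 3, against 0 to 0.046 CPM in all other day 10 libraries. Tnf was at 3.50 and 2.27 CPM in replicates 1 and 3, against 0 to 0.13 CPM in the other Fh1-/- and 0.22 to 1.01 CPM in Fh1+/+ kidneys. Il11 and Osm, at 0.64 CPM or less, overlapped between the genotypes. Of 10 tested cytokines and receptors, edgeR called 0, DESeq2 called 2 as higher, and 3 stood higher and 1 lower with unadjusted p below 0.05, with a median of 0.31. Over all genes DESeq2 called 3.49% as higher, and 15.1% stood higher and 11.9% lower with unadjusted p below 0.05. Tnfrsf1a, the main TNF receptor, had 1.39, Osmr, the oncostatin M receptor, 1.45, and Il11ra1, the interleukin-11 receptor, -0.50 (adjusted p = 0.042, 0.057 and 0.048 from edgeR). Of 11 genes of the STAT3 pathway, edgeR called 0, DESeq2 called 5 as higher, and 6 stood higher and 0 lower with unadjusted p below 0.05 (all genes: 3.49%, 15.1% and 11.9%), with a median of 0.42. Stat3 was at 165.5 to 579 CPM in Fh1-/- against 86.9 to 132 CPM in Fh1+/+ kidneys (log2 fold change 1.96, adjusted p = 0.021 from edgeR). Socs3, the feedback inhibitor of the pathway, was at 9.40 to 264 CPM in Fh1-/- against 3.03 to 5.99 CPM in Fh1+/+ kidneys (4.84, adjusted p = 0.032 from edgeR). For Bcl3, a partner of NF-kB, the log2 difference was 2.64 (adjusted p = 0.032 in edgeR).

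Of 9 other C/EBP family members and partners, all had log2 fold changes above 0 at day 10, with a median of 0.73. Over all genes 49.9% had values above 0. EdgeR called 0, DESeq2 called 2 as higher (3.49% of all genes), and 5 were higher at an unadjusted p under 0.05 (15.1% of all genes). Atf4, a stress-induced partner, had 0.83, Trib3, one of its targets, 2.41, and Trib1, a scaffold for C/EBP degradation, 1.33 (adjusted p = 0.064, 0.068 and 0.113 from edgeR). Of 6 tested products that fall in the classical response, Alb had -1.75 and Trf, transferrin, 3.501 (adjusted p = 0.072 and 0.056 from edgeR), and the median was -0.06. EdgeR called 0 of the 6, while DESeq2 called Alb and Trf, against 5.54% of all genes. With unadjusted p below 0.05 in edgeR, 1 stood higher and 1 lower, against 15.1% and 11.9% of all genes. Fetub had 0.46 (adjusted p = 0.411 from edgeR). Of 15 receptors and clearance genes, edgeR called 0, DESeq2 called 3 as higher (3.49% of all genes) and 3 stood higher with unadjusted p below 0.05 (15.1% of all genes), with a median of -0.39. Tgfbr1, a TGF-beta receptor, had 1.24, Hmox1, which degrades haem, 1.58, and Tlr2, a receptor of the innate response, 3.01 (adjusted p = 0.056, 0.071 and 0.074 from edgeR). In each of these 5 lists edgeR and DESeq2 called 0 at day 5. Without Fh1-/- replicates 1 and 3, a setting chosen for the list genes after their values were seen, the log2 fold change at day 10 was 3.10 for C3, 2.81 for Socs3 and 1.504 for Stat3 (adjusted p = 0.041 each by edgeR). It was then 2.72 for Lcn2, 1.92 for Bcl3, 1.37 for Trf, 0.72 for Trib3 and for Lbp, 0.55 for Tlr2 and 0.30 for Trib1 (adjusted p between 0.071 and 0.571 by edgeR). For Tnfrsf1a, Osmr, Hmox1, Tgfbr1, Atf4 and Fetub it was 0.88, 0.87, 0.76, 0.67, 0.47 and 0.08, and for Alb and Il11ra1 -1.45 and -0.35, each with an adjusted p above 0.1.

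Across all 20 libraries Saa1 and Lrg1 ran together, with Pearson's r of log2 CPM of 0.97, and 0.90 over the 18 without Fh1-/- day 10 replicates 1 and 3. Hp and Orm1 formed another pair, at 0.83 and 0.86. Saa1 and Hp had 0.26 and -0.09, and Saa1 and Saa3 0.45 and -0.02. The libraries share genotype and day within groups, so these values are descriptions. The tested genes most like Saa1 in pattern were Apbb3 (0.98 over 20 libraries, 0.94 over 18), Mapkapk2 and Icam1, and those most like Lrg1 were Apbb3 (0.98 and 0.94), Mapkapk2 and Cep85. For Saa2 they were Zkscan6 (0.93 and 0.81), AI837181 and Mob3a, and for Serpina3n C3 (0.96 and 0.91), Mt2 and Ndor1. For Saa3 they were Timp1 (0.85 and 0.81), Chil1 and Cxcl5. For Hp they were Apoc1 (0.82 and 0.80), Marco and Usf2, and for Orm1 Faim (0.85 and 0.70), Cntd1 and AW112010. For Cebpb they were 2010003K11Rik (0.94 and 0.87), Eci2 and Arih2, and for Cebpd Armcx4 (0.97 and 0.94), Ccdc101 and Rnf19a.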

How the data were processed

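Raw counts per gene symbol, as the authors deposited them, were analysed for the 20 libraries (n = 5 for each genotype and day). By the methods of the study, the authors used a stranded polyA capture kit, aligned reads to GRCm38 with STAR 2.6.0c, used Cutadapt to filter adapters and poorly mapped reads, and obtained counts with Rsubread on GENCODE models. The counts are not normalized and replicates are not pooled. Gene positions were taken from GENCODE vM21 of the same build and promoter sequences from RefSeq. Counting intervals and limits at 0 (3 counts) cover counting error only.

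The 9 genes and all lists were chosen with earlier results of these data known. Each comparison was fitted on the whole table with edgeR 4.0.16 (TMM, filterByExpr, glmQLFit, glmQLFTest, Benjamini-Hochberg adjustment) in R 4.3.3, each day and the Fh1+/+ comparison on its own 10 libraries, the difference between days on all 20. Calls needed an adjusted p under 0.01 and an absolute log2 fold change over 0.58. CPM printed per library uses TMM factors over all 20, with a prior count of 2 for log2 CPM. The named genes were the 9, the 3 genes of highest r with each, and the 3 of lowest p at day 10 in each list. Genes printed beyond these (A2m, Tmem189, Spidr, Il1b and the cytokines that did not pass the filter) were named after their values were seen.

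No pair of libraries in a group agreed within sampling noise (chi-square per degree of freedom 7.87 to 399 over 40 pairs). The lowest value was that of Fh1-/- day 10 replicates 1 and 3. Against the other libraries of their group these replicates had 296 to 399. The alternatives were DESeq2 1.42.0, limma-voom with quality weights (limma 3.58.1), RLE normalization, no filter, a stricter filter (1 CPM in 5 libraries), an adjusted p under 0.05, a replicate block, a Y-linked covariate, one fit of all libraries, and leaving out each library or both Fh1-/- day 10 replicates 1 and 3. The fits were also run on simulated counts, in which each changed gene had the same fold change in every Fh1-/- library. Libraries that stand apart from their group, as Fh1-/- day 10 replicates 1 and 3 do, were not simulated.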

Additional observations from a re-analysis of the deposited data

How the results depend on the processing

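Of 655 log2 fold changes of the 9 genes under the alternatives, 595 kept their direction and side of the threshold, 20 passed it and 40 changed sign. At day 10 the 20 alternatives gave 3.93 to 7.57 for Saa1, 3.72 to 6.89 for Lrg1, 1.77 to 6.48 for Serpina3n, 1.02 to 2.08 for Cebpb and 1.44 to 2.94 for Cebpd, each above 0 throughout. The number of the 9 genes called at day 10 was 5 with DESeq2, 4 with one fit of all libraries and 2 at an adjusted p under 0.05 (edgeR with both thresholds: 0), and 0 to 2 when each library was left out, the 2 without Fh1-/- replicate 2. For the difference between the days it was 3 with DESeq2, 1 at an adjusted p under 0.05 and 0 to 2 when each library was left out (edgeR with both thresholds: 0). Over all genes, the count at day 10 was 8 with edgeR, 796 with DESeq2, 15 with limma-voom, 16 with no filter, 3 with the stricter filter, 406 at an adjusted p under 0.05, 20 with the Y-linked covariate, 836 with one fit, 2 without both Fh1-/- replicates 1 and 3, and 0 to 235 when each library was left out. At day 5 it was 5, and 31 with DESeq2, 9 at an adjusted p under 0.05, 8 with the Y-linked covariate and 2 to 4 when each library was left out. For the difference between the days it was 5, and 272, 9, 10, 11, 161 and 92 with DESeq2, limma-voom, no filter, the stricter filter, an adjusted p under 0.05 and the Y-linked covariate, 3 without both replicates, and 3 to 296 when each library was left out. Fh1+/+ counts between the days were 0 in every alternative. The cause of these shifts was not tested. With the replicate block the counts over all genes were 0 at day 10, 0 at day 5 and 2 for the difference between the days, and 0 of the 9 genes were called. The labels do not say whether the replicate numbers pair the libraries. Correlations of same-numbered deviations ran between -0.27 and 0.09 at day 10 and between -0.51 and 0.33 at day 5. Such correlations cannot settle whether libraries were paired by litter or batch. Under the replicate block Saa3 changed sign to 0.72 at day 10 and 0.42 for the difference between the days, Serpina3n to -0.0091 at day 5 and Lrg1 to -0.027 between the days in Fh1+/+ kidneys. With limma-voom Hp changed sign to -0.74 at day 10 and -0.10 for the difference between the days, and Saa3 and Serpina3n to -0.48 and -0.15 at day 5. With the Y-linked covariate Saa3 and Cebpd changed sign to -0.24 and -0.19 at day 5. Without both Fh1-/- replicates 1 and 3 Saa2 changed sign to -0.60 and Hp to -0.36 at day 10, and Saa2 to -0.22 for the difference between the days. When each library was left out, values of both signs were found at day 10 for Saa3 (-0.73 to 0.74) and Hp (-0.22 to 0.91), at day 5 for Saa3 (-0.44 to 0.49), Serpina3n (-0.42 to 0.65), Cebpb (-0.30 to 0.011) and Cebpd (-0.33 to 0.87), for Saa3 in the difference between the days (-0.88 to 0.60) and for Lrg1 between the days in Fh1+/+ kidneys (-0.092 to 0.37). Counts of Saa2 at day 5 and of Orm1 at both days were too low to pass the filter on low counts.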
